A study of Saccharomyces cerevisiae with 24 samples.

Results

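The nuclear-encoded subunits of the yeast respiratory chain and ATP synthase were followed through 23 libraries of ribosome-protected mRNA fragments. Members were chosen by a list of locus tags. They comprised succinate dehydrogenase (complex II, 4 genes), the cytochrome bc1 complex (complex III, 9 genes), both isoforms of cytochrome c (2 genes), cytochrome c oxidase (complex IV, 9 genes), the F1 and Fo parts of ATP synthase (12 genes) and the NADH dehydrogenases (3 genes). All 39 had a line of their own among the 5564 lines of the expression table.

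Ribosome profiling sequences the stretch of mRNA that a ribosome shields from nuclease, and its values were given as RPKM, a read number scaled by the length of the reading frame and by the mapped reads of the library. Cells were the haploid laboratory strain BY4741, which is auxotrophic for histidine, leucine, methionine and uracil. In YPD, a rich glucose medium, cells were heat shocked (42 °C for 20 min, 2 libraries, without drug and at x1 of cycloheximide), were exposed to 0.2 mM hydrogen peroxide for 30 min (oxidative stress, 8 libraries) or were left unstressed at 30 °C (8 libraries). Oxidative stress and unstressed growth were each profiled without drug and at x1/64, x1/16, x1/4, x1, x8 and x100 of cycloheximide, where x1 is 100 μg/ml, with 2 replicates at x100 only. In SD, a minimal glucose medium, cells were profiled without amino acids, without amino acids but with His, Met and Leu, or in complete SD, with 1 library each and no cycloheximide in the culture. By the methods starved cells were filtered, moved to new medium and kept there for 20 min. Heat-shocked cells were likewise filtered and moved to preheated YPD. No such transfer is described for complete SD or for unstressed cells. Edeine and aurintricarboxylic acid, inhibitors of initiation, were added to lysates of unstressed cells that had received no drug, 1 library each. With aurintricarboxylic acid the nuclease was used after the sucrose gradient, on pooled polysomes and monosomes, and not before it. By the methods the regular lysis buffer held 100 μg/ml cycloheximide. Cycloheximide, which arrests elongation, was added at the end of the stress, and cells were then harvested by filtering for 5 min. For cells without it, filtering began 5 min before the stress was to end. The x8 stock was in DMSO, and at x100 the drug was added after filtering. Without amino acids, the strain lacked the His, Met and Leu that it cannot make. By the methods that medium was nitrogen base and glucose only, so the other supplements of complete SD were absent too. Uracil was added back in some cases, and the labels do not say in which. Message amounts were not used here, so a higher level of a message and a higher number of ribosomes on it cannot be told apart, and RPKM is a share of each library's reads.

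Depth, recovered from the values, ran from 1920000 to 27900000 reads per library, with a median of 6940000 reads. The labels were checked on genes of known response. HSP26, a small heat shock chaperone, stood at 30087 and 23018 RPKM after heat shock, against 16.3 to 76.9 RPKM in unstressed cells. SRX1, the sulfiredoxin induced by peroxide, stood at 1742 to 5630 RPKM under oxidative stress, against 1.73 to 34.2 RPKM in unstressed cells. GCN4, the activator of amino acid synthesis, stood at 4065 RPKM without amino acids and 973 RPKM with His, Met and Leu, against 37.1 RPKM in complete SD. The unstressed library at x1/64, 1 of the shallowest at 2030000 reads, stood apart for the members. It was the lowest of the 8 unstressed libraries for 32 of the 39 members. Over the 36 members that passed the filter there, the median difference from the other unstressed libraries was -1.33 on the log2 scale, beside -0.06 for all genes. The calls and overlap over doses as deposited, the dose trend and the ranges of the complexes are given with and without x1/64. The isoform ratios, the oxidative differences by complex and by member, the centred counts and the test of differing slopes are given with it only. This library also gave the lowest unstressed value of most single members.

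In respiration, electrons from NADH and succinate pass through ubiquinone to complex III, by cytochrome c to complex IV and on to oxygen, and the resulting proton gradient drives ATP synthase. Budding yeast has no proton-pumping complex I and oxidizes NADH with single-subunit dehydrogenases instead. On glucose it ferments and represses most respiratory genes, while the HAP activator complex and heme raise them when glucose runs out. Several subunits come in an aerobic and a low-oxygen isoform, of which COX5A with COX5B and CYC1 with CYC7 are the best known.

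The members took a small share of all footprints, and that share followed the conditions. The 38 members with countable reads held 0.381 to 0.500% of the reads under oxidative stress, 0.336 and 0.318% in the heat shock libraries, and 0.147 to 0.232% in unstressed cells (0.193 to 0.232% without x1/64). In SD they held 0.827% without amino acids and 0.778% with His, Met and Leu, against 0.365% in complete SD. The highest of a member's 23 values lay in a starvation library for 35 of the 39 members, and the lowest lay in the unstressed library at x1/64 for 31 of the 39. The same counts were not made over all genes. The median over all lines was itself 44.3 RPKM without amino acids and 30.6 RPKM with His, Met and Leu, against 21.1 RPKM in complete SD. It was 19.8 RPKM in the unstressed library at x1/64.

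ATP synthase stood highest of the complexes in oxidative and unstressed cells, cytochrome c aside. The median over its 12 subunits was 239 to 423 RPKM under oxidative stress and 93.5 to 210 RPKM in unstressed cells. Complex IV followed, with medians of 146 to 226 RPKM under oxidative stress and 39.7 to 143 RPKM in unstressed cells. Complex III lay at 104 to 153 RPKM under oxidative stress and 21.0 to 71.9 RPKM in unstressed cells. Complex II was lower, at 48.2 to 146 RPKM under oxidative stress and 11.2 to 41.4 RPKM in unstressed cells. For each of these complexes the lowest oxidative median was above the highest unstressed one. The lower ends in unstressed cells came from x1/64, without which they were 149 RPKM for ATP synthase, 92.4 RPKM for complex IV, 44.4 RPKM for complex III and 18.1 RPKM for complex II. In the heat shock libraries without drug and at x1 the order changed, with complex IV at 210 and 270 RPKM and ATP synthase at 201 and 181 RPKM.

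**Figure D1:**
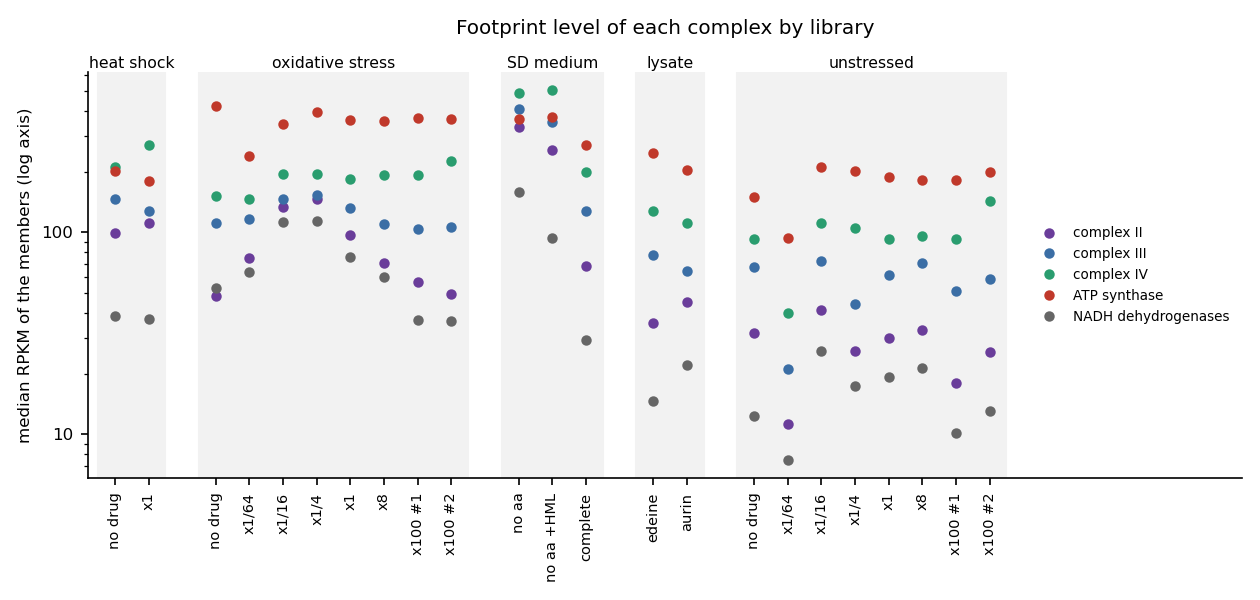
Median RPKM of the members of each complex in each library, on a log axis, with 1 point per complex and library and libraries grouped by treatment. Of complexes II to IV and ATP synthase, the last was the highest in every oxidative, unstressed and lysate library and in complete SD, and complex IV was above it without drug and at x1 of heat shock and in both starved libraries.

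Oxidative stress was set against unstressed growth over 16 libraries with dose as a block, on log2(RPKM + 1), by limma with Benjamini-Hochberg adjustment over 4352 genes. All 38 members that passed the filter, a mean of 10 RPKM, were called higher under oxidative stress and 0 lower, where 63.0% of all genes were called higher and 22.8% lower. Their median difference was 1.17 (2.26-fold), beside 0.53 over all genes and 0.75 over genes of at most 450 nt, the size class of 18 of the 39 members. When each library was centred on the median of its genes, 31 members were called higher, 0 lower (also 0 at an unadjusted p under 0.05) and 7 not called, where 41.5% of genes were then higher and 41.1% lower. The 7 were SDH3, COX5A, COX6, COX8, COX9, ATP18 and ATP20. Without the x1/64 libraries all 38 members were again called higher, with a median of 1.00. There 3745 of 4323 genes were called in either direction, with 2709 higher and 1056 lower at an unadjusted p under 0.05. For 27 of the 38 members the 8 oxidative values did not overlap the 8 unstressed ones, where 38.2% of genes did not overlap and were higher and 12.5% lower. Without the x1/64 libraries this held for 30 of the 38, where 40.7% of genes were higher and 15.3% lower. At x1 and x8 the oxidative libraries were made with primer set 2 and the unstressed ones with set 1. Primer set was not a term of the fit over doses. With it as a term, 37 of 38 members and 3673 of 4352 genes were called in either direction.

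The median difference varied by complex. Complex II had a median difference of 1.58 and complex III of 1.53, while complex IV had 0.86 and ATP synthase 0.88, all on the log2 scale as deposited. After centring these medians were 1.05, 1.01, 0.33 and 0.35 in the same order of complexes. The F1 part of ATP synthase, at 0.87, and its Fo part, at 0.88, had almost the same median.

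**Figure D2:**
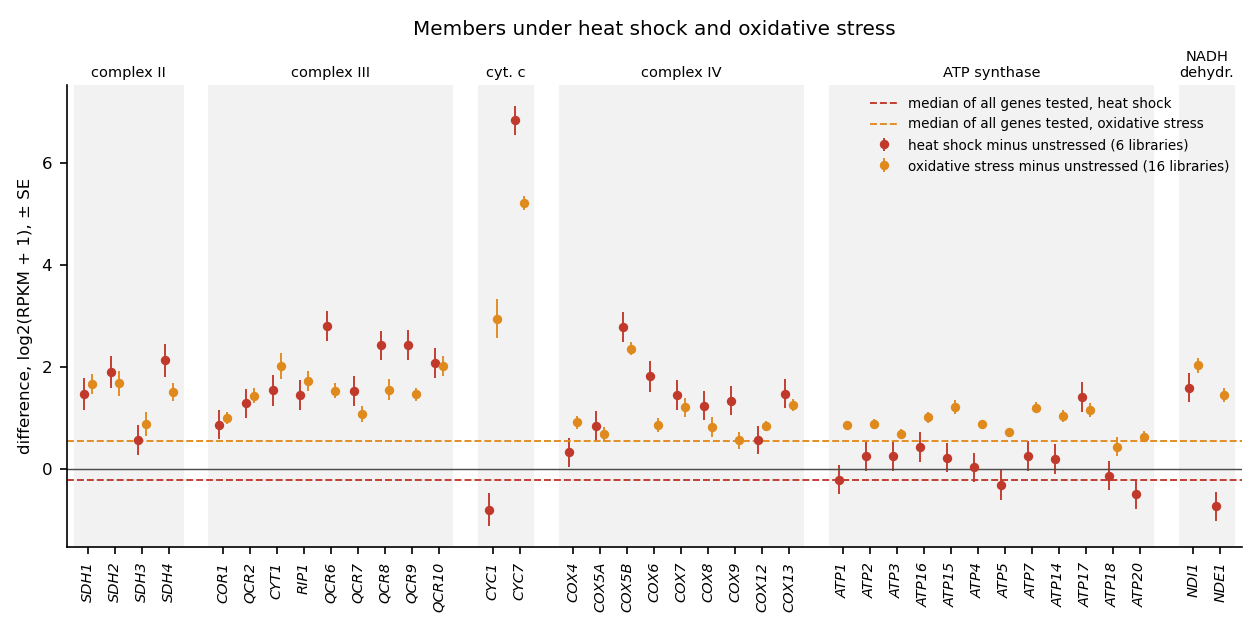
Difference of each member from unstressed cells on log2(RPKM + 1), as deposited, for heat shock and for oxidative stress, with bars of 1 standard error from limma and dashed lines at the median of all genes. Both sets lie above their line for complexes II and III, and for ATP synthase the heat shock points lie below the oxidative ones for all subunits but ATP17.

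Complex II links the citric acid cycle to the chain by oxidizing succinate. SDH1 (YKL148C), its flavoprotein, had a lowest, median and highest value of 16.7, 24.7 and 41.8 RPKM under oxidative stress, against 4.13, 7.78 and 12.2 RPKM in unstressed cells. SDH2 (YLL041C), the iron-sulfur subunit, had 31.2, 53.8 and 102 RPKM under oxidative stress, against 5.62, 17.7 and 27.3 RPKM in unstressed cells. Neither pair of groups overlapped, and the differences were 1.66 (SE 0.20) for SDH1 and 1.67 (SE 0.24) for SDH2. The membrane anchors differed from each other, as SDH4 showed 1.50 with no overlap, while SDH3 showed 0.88 with overlapping groups and was higher at 6 of 7 doses. The level of SDH1 was below that of SDH2 in each of the 23 libraries, at a ratio of 0.326 to 0.769.

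Complex III passes electrons from ubiquinol to cytochrome c, and CYT1, RIP1 and QCR2 are its cytochrome c1, its Rieske iron-sulfur protein and a core subunit. CYT1 (YOR065W) had a lowest, median and highest value of 25.3, 42.2 and 78.7 RPKM under oxidative stress, against 2.37, 12.3 and 22.3 RPKM in unstressed cells. The groups did not overlap, and CYT1 rose by 2.01 (SE 0.25, adjusted p = 7.8e-06 by limma with Benjamini-Hochberg adjustment). QCR10 (YHR001W-A), a small subunit, had 146, 225 and 380 RPKM under oxidative stress, against 12.5, 71.3 and 96.4 RPKM in unstressed cells, with a difference of 2.02 (SE 0.19). RIP1 differed by 1.72, QCR8 by 1.55, QCR6 by 1.53, QCR9 by 1.46 and QCR2 by 1.43. The smallest differences were those of QCR7, at 1.06, and of the other core subunit COR1, at 0.99, and QCR7 was the member of this complex whose groups overlapped. All 9 subunits were called higher under oxidative stress as deposited and after centring.

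Cytochrome c carries electrons between complexes III and IV, and its isoforms had the largest differences of the 38 members tested. CYC7 (YEL039C), the isoform of low oxygen and stress, had few reads in unstressed cells, where 1 to 17 reads per library gave 1.07 to 9.88 RPKM. It had a lowest, median and highest value of 71.7, 190 and 462 RPKM under oxidative stress, against 1.07, 3.68 and 9.88 RPKM in unstressed cells. The groups lay far apart, and CYC7 rose by 5.22 on log2(RPKM + 1) (SE 0.13, adjusted p = 8.5e-12 by limma with Benjamini-Hochberg adjustment). The added 1 RPKM lowers this value, and the plain ratio of RPKM was 39.1 to 74.2 over the 7 doses. CYC1 (YJR048W), the main aerobic isoform, had 118, 358 and 931 RPKM under oxidative stress, against 17.1, 46.2 and 77.4 RPKM in unstressed cells, and rose by 2.94 on log2(RPKM + 1) (SE 0.38), with plain ratios of 4.28 to 23.3 over the doses.

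CYC1 was uneven between replicates. The replicates of oxidative stress at x100 read 118 and 931 RPKM for CYC1, from 422 and 2489 reads, against 38.9 and 77.4 RPKM in the unstressed replicates at x100. CYC7 did not show this spread and stood at 71.7 and 98.2 RPKM in the same oxidative libraries, against 1.07 and 2.46 RPKM in the unstressed ones. At x100 alone, the single condition with replicates, the CYC1 difference was 2.58 (SE 0.94, adjusted p = 0.0496 by limma with Benjamini-Hochberg adjustment over 4101 genes). It was 4.06 without replicate 1 of the oxidative libraries and 1.09 without replicate 2, and it lost its call in 7 of 12 alternatives. By the study's methods the x100 treatment was carried out in independent repeats. At x100, limma called 36 of the 38 members higher and 0 lower (37 and 0 at an unadjusted p under 0.05), where 55.3% of genes were higher and 19.7% lower. COX5A (0.41) and COX9 (0.17) were not called. With centring 19 of the 38 were called higher at x100, where 31.6% of genes were higher and 34.6% lower.

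**Figure D3:**
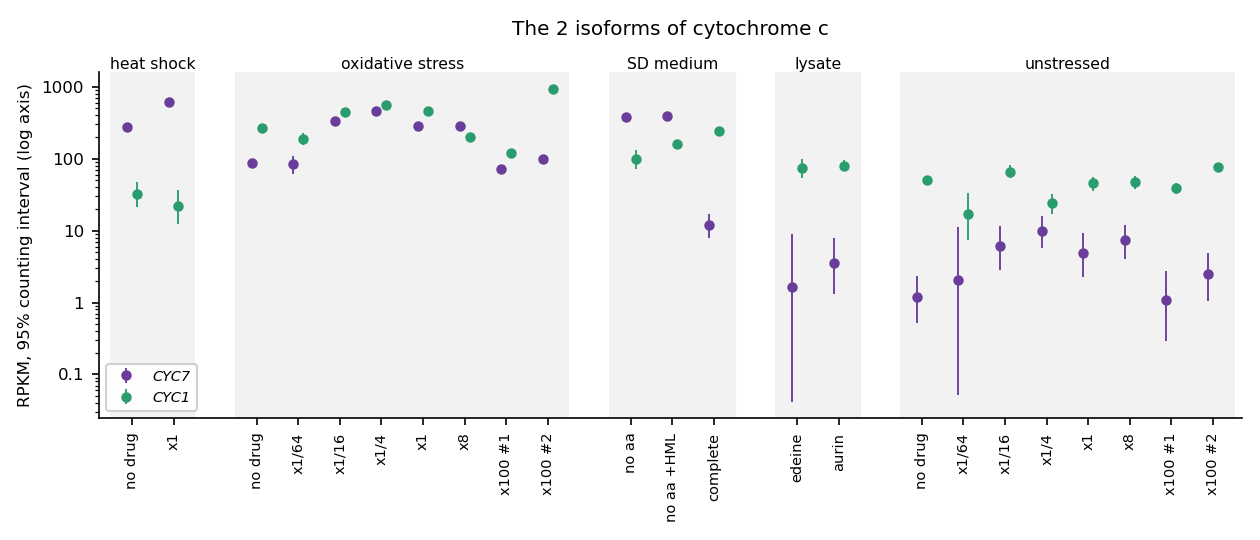
RPKM of CYC7 and CYC1 in each of the 23 libraries on a log axis, with bars of the exact Poisson interval at 95% for counting error. CYC7 lies between 1.07 and 9.88 RPKM in the unstressed libraries and between 71.7 and 604 RPKM under oxidative stress, heat shock and both starvations, while CYC1 is below CYC7 after heat shock, at x8 of oxidative stress and in both starved libraries.

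Complex IV reduces oxygen. Its nuclear subunits surround the mitochondrially made core, and all 9 were called higher under oxidative stress as deposited, against 5 after centring. COX5B (YIL111W), the low-oxygen isoform of subunit V, had a lowest, median and highest value of 109, 173 and 283 RPKM under oxidative stress, against 16.6, 33.3 and 64.9 RPKM in unstressed cells. COX5A (YNL052W), its aerobic partner, had 109, 127.7 and 153 RPKM under oxidative stress, against 47.6, 84.5 and 113 RPKM in unstressed cells. COX5B rose 5.12-fold on log2(RPKM + 1) with no overlap (SE 0.13 on that scale, adjusted p = 3.1e-09 by limma with Benjamini-Hochberg adjustment), whereas the COX5A groups overlapped and its difference was 0.67 (SE 0.15). COX13 differed by 1.25 and COX7 by 1.20. COX4, COX6, COX12 and COX8 differed by 0.82 to 0.91, and COX9, which was higher at 6 of 7 doses, by 0.55. COX4, COX7, COX8, COX9, COX12 and COX13 also had overlapping groups. COX7 and COX9 were each counted over fewer than 100 nt, and the values of COX4 did not correspond to whole reads, so no counting interval is given for it.

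ATP synthase makes ATP from the proton gradient, with catalytic F1 subunits in the matrix and an Fo part in the membrane. ATP1 (YBL099W), the alpha subunit, had a lowest, median and highest value of 435, 501 and 709 RPKM under oxidative stress, against 265, 282 and 309 RPKM in unstressed cells. ATP2 (YJR121W), the beta subunit, had 401, 546 and 606 RPKM under oxidative stress, against 254, 289 and 372 RPKM in unstressed cells. Both pairs of groups were separate, and the differences were small but tight, at 0.86 (SE 0.08) and 0.87 (SE 0.09). The gamma subunit ATP3 differed by 0.68, delta (ATP16) by 1.00 and epsilon (ATP15) by 1.21. Of the peripheral stalk, ATP7 (subunit d) differed by 1.20, ATP14 (h) by 1.04, ATP4 (b) by 0.88 and ATP5 (OSCP) by 0.72. Of the membrane subunits, ATP17 (f) differed by 1.15 and ATP20 (g) by 0.63. ATP18 (YML081C-A, subunit i/j) was the weakest of all members, with 236, 412 and 452 RPKM under oxidative stress, against 188, 279 and 425 RPKM in unstressed cells. Its groups overlapped, it was higher at 5 of 7 doses, and its difference of 0.42 (SE 0.19, adjusted p = 0.049 by limma with Benjamini-Hochberg adjustment) lost its call in 14 of 19 alternatives and read -0.10 after centring.

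In the assembled enzyme several alpha and beta subunits surround a single gamma subunit. Per length, ATP1 over ATP3 had a median ratio of 1.89 over the 23 libraries (range 1.20 to 3.21), and ATP2 over ATP3 had 2.06 (1.50 to 2.75). ATP1 and ATP2 were close to each other, with a median ratio of 1.05 and a range of 0.618 to 2.09. The core subunits of complex III, COR1 over QCR2, had a median ratio of 1.14 and a range of 0.702 to 1.77.

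The NADH dehydrogenases feed electrons from NADH into ubiquinone, NDI1 from the matrix and NDE1 and NDE2 from the outer face of the inner membrane. NDI1 (YML120C) had a lowest, median and highest value of 36.6, 62.0 and 114 RPKM under oxidative stress, against 7.51, 15.2 and 25.8 RPKM in unstressed cells. NDE1 (YMR145C) had 114, 156 and 191 RPKM under oxidative stress, against 21.2, 62.6 and 81.0 RPKM in unstressed cells. Neither pair of groups overlapped, and NDI1 rose by 2.03 (SE 0.16) and NDE1 by 1.44 (SE 0.13). NDE2 (YDL085W) was below the filter and was not tested. It had 6.88 to 21.7 RPKM under oxidative stress, against 0 to 0.732 RPKM in unstressed cells.

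Isoform pairs were then compared within each library, where the depth of a library cancels for values well above the pseudocount. The ratio of COX5A to COX5B had a median of 0.676 under oxidative stress (range 0.485 to 1.37), against 2.48 in unstressed cells (1.02 to 4.07). The ratio of CYC1 to CYC7 had a median of 1.65 under oxidative stress (0.706 to 9.49), against 9.995 in unstressed cells (2.41 to 42.2). The ratio of NDE1 to NDE2 had a median of 15.5 under oxidative stress (7.95 to 24.6), against 243.5 in 7 of the 8 unstressed libraries (76.5 to 757), NDE2 being listed at 0 in the other. Each ratio was lower under oxidative stress at 7 of 7 doses. The mean change on log2(RPKM + 1) was -1.68 (SD 0.39) for COX5A over COX5B, -2.25 (SD 0.80) for CYC1 over CYC7 and -1.81 (SD 0.72) for NDE1 over NDE2. Flipping the sign of each dose's change in an exact permutation test (two-sided, 7 doses) gave p = 0.0156 for each pair, the smallest it can give, and 0.0156 after Benjamini-Hochberg adjustment over the 3 pairs. The change of NDE1 over NDE2 was set by the pseudocount, which at 1 RPKM was already above every unstressed level of NDE2. It was -3.59 with 0.1 RPKM and 0.23 with 10 RPKM. How reads that match both copies of a pair were assigned is not given in the sources used here.

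**Figure D4:**
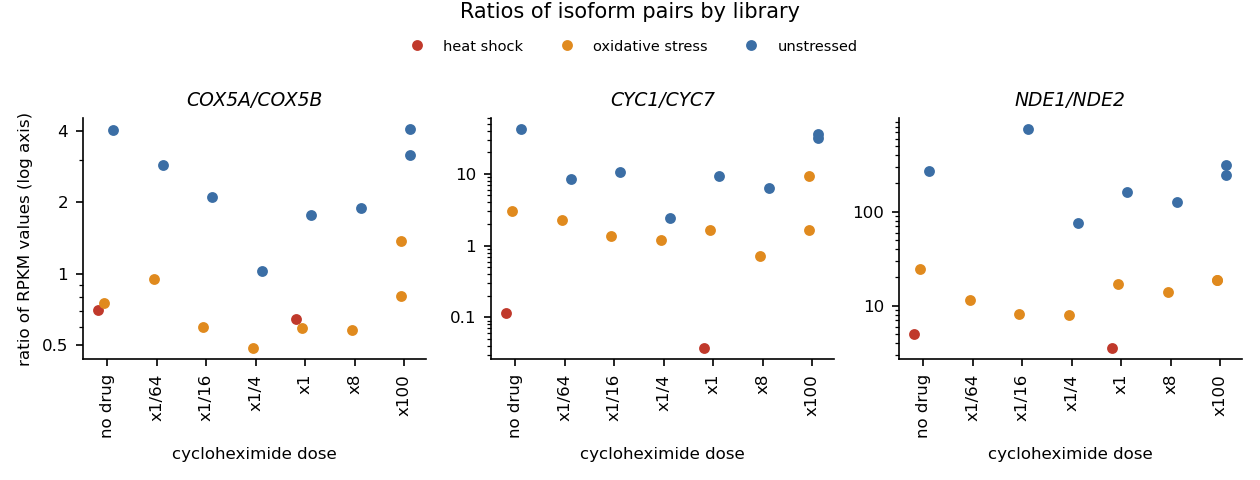
Ratio of the RPKM values of each isoform pair against cycloheximide dose, on log axes, with 1 point per library of heat shock, oxidative stress and unstressed cells. At each dose the oxidative points lie below the unstressed ones, and the heat shock points lie at 0.647 and 0.705 for COX5A over COX5B and at 0.0368 and 0.115 for CYC1 over CYC7.

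Heat shock was compared at no drug and at x1 in a fit of 6 libraries with dose as a block. It called 22 of 38 members higher, 2 lower and 14 neither, where 23.1% of 4105 genes were called higher and 35.0% lower. The members' median difference was 1.26, beside -0.23 for all genes. With centring, 30 members were higher and 1 lower, with a median of 1.55, where 34.0% of genes were higher and 31.5% lower. Pair by pair, 19 of 38 members were at least 2-fold higher and 0 lower without drug, where 19.9% of genes were higher and 23.7% lower, and 20 were higher and 0 lower at x1, where 15.9% and 35.7% of genes were. With centring 19 members were at least 2-fold higher without drug (21.6% of genes, with 22.3% lower) and 24 at x1 (24.6% of genes, with 25.4% lower). The heat shock libraries carried another primer set than their unstressed partners, and primer set was not a term of this fit. Over 18 YPD libraries with primer set as a term, 21 members were called higher and 0 lower, with a median of 1.28, where CYC1 and NDE1 lost their calls. There 2404 of 4317 genes were called in either direction, with 1068 higher and 1569 lower at an unadjusted p under 0.05. Simulated data for 4105 genes held far fewer changed genes than were called here. In them the fit of 6 libraries recovered 2% of changes of 1 log2 unit and 68% of changes of 2. Those rates may not hold for the data, and a member not called is not shown to be level. The unstressed libraries are shared with the oxidative comparison.

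The complexes were unequal in heat shock. All 9 subunits of complex III, 3 of 4 of complex II and 7 of 9 of complex IV were called higher, and 1 of 12 of ATP synthase. Median differences were 1.54 for complex III, 1.68 for complex II, 1.33 for complex IV and 0.20 for ATP synthase. After centring, all subunits of complexes II, III and IV and 6 of 12 of ATP synthase were called higher.

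CYC7 had the largest difference. It stood at 279 and 604 RPKM in the heat shock libraries without drug and at x1, against 1.19 and 4.91 RPKM in their unstressed partners. The plain ratios were 236 (95% counting interval 118 to 552) without drug and 123 (64.2 to 271) at x1, and the fitted difference on log2(RPKM + 1) was 6.84 (SE 0.29, adjusted p = 5.1e-13 by limma with Benjamini-Hochberg adjustment). CYC1 moved the other way, with 32.2 and 22.2 RPKM after heat shock, against 50.0 and 45.3 RPKM in unstressed cells. The heat shock values of CYC1 came from 26 and 15 reads, and its difference of -0.81 (SE 0.32, adjusted p = 0.039 by limma with Benjamini-Hochberg adjustment) lost its call in 6 of 10 alternatives. NDE1 was the other member called lower, at 41.6 and 37.4 RPKM after heat shock, against 63.6 and 69.7 RPKM in unstressed cells. Its difference of -0.74 (SE 0.28) lost its call in 2 of 10 alternatives.

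Among the subunits that rose, QCR6 (YFR033C), the acidic hinge protein of complex III, stood at 147 and 127.7 RPKM after heat shock, against 20.3 and 17.3 RPKM in unstressed cells. Its difference was 2.81 (SE 0.29), and QCR9 and QCR8 followed in this complex at 2.43 and 2.42. COX5B stood at 202 and 213 RPKM after heat shock, against 22.9 and 37.1 RPKM in unstressed cells, a difference of 2.79 (SE 0.29). COX5A differed by 0.83 and COX6 by 1.82, whereas COX4 (0.32) and COX12 (0.56) were not called. Among the complex II subunits SDH4 differed by 2.12, SDH2 by 1.89 and SDH1 by 1.46, and SDH3 (0.56) was not called.

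For ATP synthase, ATP1 stood at 308 and 195 RPKM after heat shock, against 309 and 265 RPKM in unstressed cells. ATP2 stood at 378 and 316 RPKM after heat shock, against 268 and 320 RPKM in unstressed cells. ATP1 was thus level with its unstressed partner without drug and lower at x1, and the ATP2 groups overlapped. ATP17 (YDR377W), subunit f of Fo, was the exception, with 538 and 410 RPKM after heat shock, against 152 and 207 RPKM in unstressed cells, and a difference of 1.40 (SE 0.30). The other 11 subunits had differences from -0.51 (ATP20) to 0.42 (ATP16).

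Set directly against oxidative stress in the same 6 libraries, heat shock gave 8 members higher and 12 lower, where 4.60% of genes were higher and 64.8% lower. Both heat shock libraries carried primer set 2, while the oxidative library without drug carried set 1 and that at x1 set 2. Primer set was not a term of this fit either. The members' median difference was 0.08, beside -0.91 for all genes. With centring 21 members were higher and 2 lower, where 14.1% of genes were higher and 13.6% lower. CYC1 was lower after heat shock by 3.67 on the log2 scale as deposited, at 32.2 and 22.2 RPKM, against 267 and 465 RPKM under oxidative stress. NDE1 showed -2.22, at 41.6 and 37.4 RPKM after heat shock, against 183 and 191 RPKM under oxidative stress. These were the 2 members lower after centring, at -2.81 and -1.36. ATP synthase depended on the scale, with 10 of 12 subunits lower as deposited, and 0 lower and 1 higher (ATP17) after centring.

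Other genes that build, belong to or regulate the complexes were counted beside the members. Under oxidative stress 17 of 17 tested cytochrome c oxidase assembly genes, 8 of 8 for complex III assembly and heme attachment and 4 of 4 for complex II assembly were called higher. So were 10 of 10 further ATP synthase genes (assembly factors, regulators and the subunits ATP19 and TIM11). The calls higher were also 6 of 6 translational activators of mitochondrial messages, 5 of 5 HAP genes and 9 of 9 coenzyme Q genes. Medians of these lists ran from 1.14 to 2.32, and 63.0% of all genes were called higher. After centring each count was the same but that of the HAP genes, which was 4 of 5. Another 4 listed genes tied to oxygen or heme had a line of their own (HEM13, ROX1, OLE1 and HMG2). Of these, 2 were higher and 1 lower, and 1 higher and 1 lower after centring. ANB1 was listed on a line joined with another gene and is left out of these counts. Of the carriers, the ADP/ATP carrier PET9 was higher by 0.49, beside 0.53 for all genes, and was not called after centring (-0.04). The phosphate carrier MIR1 showed -0.03 and was not called as deposited, and was lower after centring (-0.55). In heat shock the calls higher were 6 of 17 for cytochrome c oxidase, 1 of 8 (and 1 lower) for complex III, 3 of 4 for complex II, 4 of 10 for ATP synthase, 1 of 5 translational activators, 1 of 4 HAP genes (and 1 lower) and 2 of 9 coenzyme Q genes, where 23.1% of all genes were. After centring these counts were 10, 3 (and 1 lower), 4, 6, 2, 1 (and 1 lower) and 4 in the same order, where 34.0% of all genes were higher. The 4 listed genes tied to oxygen or heme had 0 higher and 3 lower after heat shock, and 1 higher and 3 lower after centring. STF2, which stabilizes the complex of ATP synthase with its inhibitor, stood out at 1716 to 4122 RPKM under oxidative stress and 1970 and 2945 RPKM after heat shock, against 22.2 to 132 RPKM in unstressed cells. It rose by 5.91 under each stress, and the inhibitors INH1 and STF1 rose by 3.04 and 3.55 under oxidative stress and by 3.39 and 3.51 after heat shock. HAP4, the glucose-regulated subunit of the HAP activator, rose by 1.43 under oxidative stress. Of the mitochondrially encoded subunits, COX1 alone was listed, on a line joined with its intron reading frames, and was not tested.

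The dose of cycloheximide was examined over 14 drug-treated libraries as a change of log2(RPKM + 1) per 10-fold dose, with stress and primer set in the fit. It called 10 of 38 members higher with dose and 0 lower, where 4.30% of 4371 genes were higher and 19.5% lower. They were QCR8, COX7, COX8, COX9, COX12, COX13, ATP16, ATP7, ATP17 and ATP20 with slopes from 0.16 (ATP16) to 0.53 (COX7). QCR9, at -0.18, was the member with a negative slope at an unadjusted p under 0.05. COX7, for example, ran through 11.9, 111, 105, 116 and 96.4 RPKM from x1/64 to x8 and 89.2 and 143 RPKM at x100 in unstressed cells. It was thus low at x1/64 and without order above that dose. Without the x1/64 libraries limma called 0 of 38 members and 0 of 4333 genes. At an unadjusted p under 0.05, 0 members were higher and 6 lower, where 242 genes were higher and 718 lower. The members' median slope was then -0.06, against 0.11 with those libraries. A test of whether the slope differed between oxidative stress and unstressed cells called 0 of 38 members and 0.00% of genes, with 7 members and 229 genes at an unadjusted p under 0.05.

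Amino acid starvation was compared with 1 library per condition, so that no test was made and a change of 2-fold on log2(RPKM + 1) is counted instead. Without amino acids, 23 of 39 members were at least 2-fold higher than in complete SD and 1 was lower, where 48.9% of genes were higher and 13.7% lower. With His, Met and Leu, 22 of 39 were higher and 0 lower, where 29.3% of genes were higher and 11.7% lower. The medians of the members were 1.24 without amino acids and 1.34 with His, Met and Leu, beside 0.97 and 0.56 for all genes. After centring, 13 members were higher and 4 lower without amino acids (22.5% and 25.5% of genes), and 15 higher and 1 lower with His, Met and Leu (14.2% and 17.0%). Both starvations share the complete SD library. The library with His, Met and Leu carried primer set 2 and the other libraries in SD set 1, so that primer set and the supplements cannot be told apart.

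As deposited, all 9 subunits of complex III were at least 2-fold higher in each, as were 3 of 4 subunits of complex II without amino acids and 4 of 4 with His, Met and Leu. Complex IV had 6 of 9 without amino acids and 5 of 9 with His, Met and Leu. ATP synthase had 2 of 12 (ATP7 and ATP17) without amino acids and 1 of 12 (ATP17) with His, Met and Leu. After centring the counts were 4 of 9 without amino acids and 5 of 9 with His, Met and Leu for complex III, 3 of 4 in each for complex II and 2 of 9 and 3 of 9 for complex IV. ATP synthase then had 1 of 12 higher in each, and 3 lower without amino acids. Of the NADH dehydrogenases, 2 of 3 were at least 2-fold higher in each library, as deposited and after centring.

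**Figure D5:**
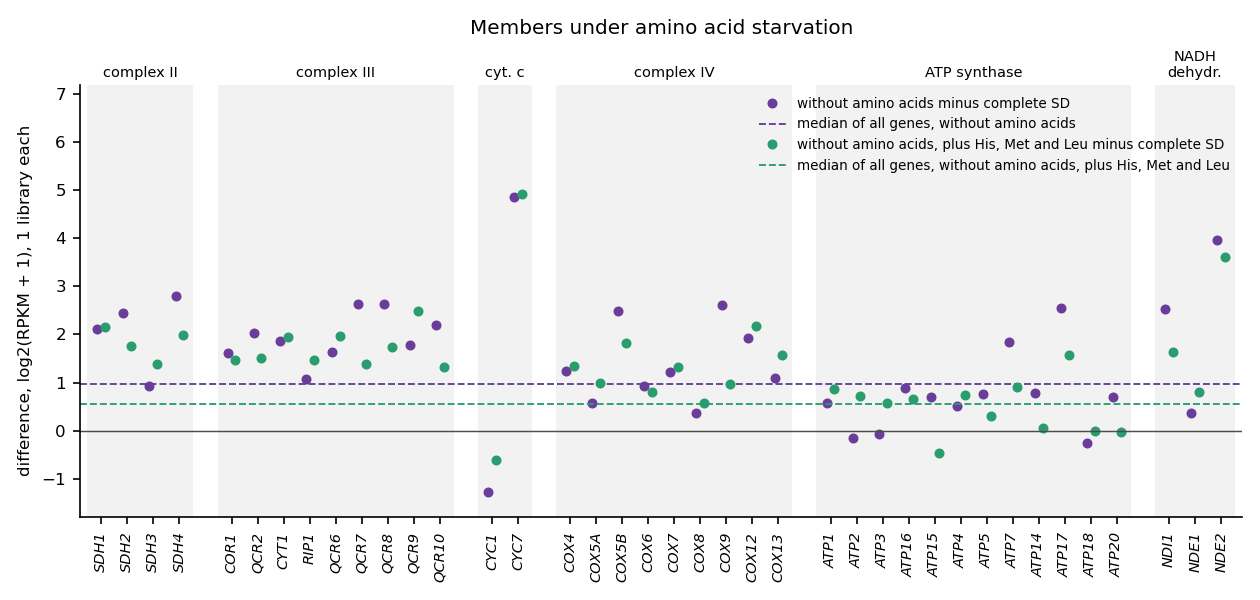
Difference of each member from complete SD on log2(RPKM + 1), without amino acids and without amino acids but with His, Met and Leu, with 1 library per condition and no error. Dashed lines mark the median of all genes, 0.97 and 0.56, and CYC7 lies far above them while CYC1 lies below 0 in both.

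The cytochrome c isoforms parted again. CYC7 stood at 377 RPKM without amino acids and 393 RPKM with His, Met and Leu, against 11.9 RPKM in complete SD, or ratios of 31.6 (95% counting interval 21.1 to 48.9) and 33.0 (22.6 to 50.1). CYC1 stood at 99.6 RPKM without amino acids and 158 RPKM with His, Met and Leu, against 242 RPKM in complete SD, or ratios of 0.411 (0.295 to 0.560) and 0.653 (0.553 to 0.768). These intervals cover counting error only. NDE2 reached its highest levels here, at 31.2 RPKM without amino acids and 24.2 RPKM with His, Met and Leu, against 1.07 RPKM in complete SD.

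Among the other members, COX5B stood at 544 RPKM without amino acids and 340 RPKM with His, Met and Leu, against 96.0 RPKM in complete SD. COX5A stood at 286 RPKM without amino acids and 387 RPKM with His, Met and Leu, against 193 RPKM in complete SD. COX5B was thus higher in the library without any amino acids, and COX5A in the one with the 3 supplements. QCR8 stood at 1849 RPKM without amino acids and 991 RPKM with His, Met and Leu, against 297 RPKM in complete SD. ATP17 showed the same order, at 1550 RPKM without amino acids and 779 RPKM with His, Met and Leu, against 262 RPKM in complete SD. ATP2 did not follow, at 344 RPKM without amino acids and 636 RPKM with His, Met and Leu, against 384 RPKM in complete SD. NDI1 stood at 174 RPKM without amino acids and 93.3 RPKM with His, Met and Leu, against 29.4 RPKM in complete SD.

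Complete SD was also set against YPD without drug. At least 2-fold higher levels were found for 19 of 37 members and lower ones for 0, where 5.09% of genes were higher and 1.19% lower. All 37 differences were positive, with a median of 1.02, beside 0.16 for all genes. CYC1 led, at 242 RPKM in complete SD, against 50.0 RPKM in YPD, a ratio of 4.84 (95% counting interval 4.21 to 5.58). COX5B stood at 96.0 RPKM in complete SD, against 22.9 RPKM in YPD, and CYT1 at 60.8 RPKM in complete SD, against 16.1 RPKM in YPD. None of the 12 ATP synthase subunits reached 2-fold, and their differences were 0.52 to 0.97. After centring 12 members were at least 2-fold higher and 0 lower, where 3.66% of genes were higher and 1.54% lower.

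The inhibitors of initiation in the lysate moved few members. With edeine 1 of 37 members, ATP7, was at least 2-fold higher and 0 were lower, where 0.951% of genes were higher and 0.652% lower. ATP7 stood at 294 RPKM with edeine, against 146 RPKM without it. With aurintricarboxylic acid 1 of 37, QCR6, was at least 2-fold higher and 0 were lower, where 1.58% of genes were higher and 1.79% lower. QCR6 stood at 52.8 RPKM with aurintricarboxylic acid, against 20.3 RPKM without it. The nuclease step of that library differed as well, so that handling and inhibitor cannot be told apart. After centring, 0 members were at least 2-fold higher or lower with edeine (0.679% of genes higher and 0.761% lower), and QCR6 alone was higher with aurintricarboxylic acid (0.856% and 2.84%). The members' medians were 0.38 with edeine and 0.30 with aurintricarboxylic acid, beside 0.07 and 0.16 for all genes.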

How the data were processed

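Footprints of 80S ribosomes were measured in 23 libraries. The sample of 40S footprints was not analysed here. Per the study's methods the authors aligned reads to the S288C genome with Bowtie 0.12.7 and processed them with their own scripts, and they deposited RPKM values. In each library 98 to 99.5% of the 400 lowest values were whole reads (within 0.1 read) over the frame length minus 100 nt, which gave depth and exact Poisson intervals at 95%, for counting error only. RPKM is no count, so log2(RPKM + 1) was tested with limma 3.58.1 in R 4.3.3, two-sided, after a filter at a mean of 10 RPKM over the libraries of each fit. Benjamini-Hochberg adjustment ran over all genes tested, with a threshold of 0.05. Isoform ratios were tested by exact sign flips over doses in Python 3.11.15 with the replicates at x100 averaged. Conditions with 1 library were not tested. On simulated data the fit over doses recovered 94% of changes of 1 log2 unit among 4352 genes, and the heat shock fit 2% among 4105 genes. The simulations held far fewer changed genes than were called in the data, so these rates may not hold for the data. Primer set 1 was used for 12 libraries and set 2 for 11. Alternatives were pseudocounts of 0.1 and 10 RPKM, other filters, library centring, primer set as a term, and doses or replicates left out. All 39 members were described, and of other lists the counts and values past the threshold. The members and lists were chosen with earlier results of these data known.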

Additional observations from a re-analysis of the deposited data

Results flagged for a closer look

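The direct test of heat shock against oxidative stress passed the threshold for 20 members as deposited (limma with Benjamini-Hochberg adjustment, log2 differences of heat shock minus oxidative stress). Higher after heat shock were SDH4 by 1.03, QCR6 by 1.35, QCR7 by 0.78, QCR8 by 1.18, QCR9 by 0.97, CYC7 by 1.38, COX6 by 1.01 and COX8 by 0.87. Lower were CYC1 at -3.67 and NDE1 at -2.22. Of the ATP synthase subunits, ATP1 stood at -1.22, ATP5 at -1.19, ATP14 at -1.13, ATP18 at -1.10, ATP15 at -1.09, ATP7 at -0.99, ATP4 at -0.99, ATP20 at -0.89, ATP2 at -0.73 and ATP16 at -0.67. The median of all genes was -0.91 in this comparison, and the part of that shift in the ATP synthase values was not tested. Primer set differed within the pair without drug and was not a term of this fit.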

How the results depend on the processing

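Most results kept their direction and their side of the threshold. The number of members called higher under oxidative stress was 36 to 38 under every alternative but library centring. Centring on each library's median gene set the median of the members under oxidative stress to 0.65, and at x100 it gave a median of 0.41 with 19 members higher. It turned ATP18 to -0.10, and at x100 COX6 to -0.073 and COX8 to -0.034. With centring the dose trend had 17 members higher, where 12.2% of genes were higher and 10.5% lower. Centred heat shock had 1 member lower and a median of 1.55. Heat shock against oxidative stress then had 21 higher, 2 lower and a median of 0.94, with ATP16 at 0.18 and ATP2 at 0.13. With centring, 13 members were at least 2-fold higher and 4 lower without amino acids, 1 lower with His, Met and Leu, 12 higher in complete SD, and 0 higher with edeine (also 0 with a pseudocount of 10 RPKM). Leaving out x1/64 set the oxidative median to 1.00 and the trend to 0 members, with 0 of 4333 genes called. The trend median was then -0.063, with ATP16 at -0.057, ATP17 at -0.034, QCR8 at -0.075 and ATP7 at -0.0073. The trend had 5 members higher and 1 lower without the primer set term, 2 higher without x100, 0 in unstressed cells alone (5 higher and 1 lower at an unadjusted p under 0.05) and 1 under oxidative stress alone, where ATP16 read -0.0090. Of all genes, 1208 of 4371 were called in either direction without that term and 801 of 4437 without x100. In unstressed cells alone 0 of 3921 genes were called, and under oxidative stress alone 436 of 4467. Heat shock had 1 member lower with a pseudocount of 0.1 RPKM or no filter, and 0 with 4 libraries alone (1 at an unadjusted p under 0.05) or with 18 libraries and primer set as a term (0 at an unadjusted p under 0.05). Its median was 1.07 with a pseudocount of 10 RPKM and 1.03 for the pair without drug, and at x1 a pseudocount of 0.1 RPKM gave 1 member at least 2-fold lower. The change of NDE1 over NDE2 was 0.23 with a pseudocount of 10 RPKM (permutation p = 0.297). Over the 5 doses that shared a primer set the ratio changes were -1.70 for COX5A over COX5B, -2.10 for CYC1 over CYC7 and -1.84 for NDE1 over NDE2, each with an exact permutation p of 0.0625, the smallest that 5 doses allow. The causes of these shifts were not tested.

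Leaving out each replicate at x100 in turn gave medians of 1.15 to 1.21 and 37 to 37 members higher and 0 to 0 lower in the comparison over doses, 0.83 to 1.05 and 30 to 37 higher and 0 to 0 lower at x100 alone, and trend medians of 0.09 to 0.14 with 9 to 14 higher and 0 to 0 lower. The ratio changes then ran from -1.73 to -1.62 for COX5A over COX5B, -2.43 to -2.07 for CYC1 over CYC7 and -1.83 to -1.79 for NDE1 over NDE2. With the replicate number as a block at x100, 37 members were higher, where 3196 of 4101 genes were called in either direction. The labels do not say what the replicate numbers share, and deviations of same-numbered libraries correlated at 0.436 over 4101 genes, across genes of 2 pairs. The alternatives for heat shock against oxidative stress and for the interaction, and the ranges and overlap without x1/64, were chosen after seeing the data. The values of CYC7 and NDE2 in unstressed cells rest on few reads, and single-library comparisons have no replicate error. Other members also had few reads in the unstressed library at x1/64, where CYC1 and SDH2 had 8 each. There the 9 subunits of complex III had 242 reads together, and the 8 countable ones of complex IV had 151.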
